A study of Rattus norvegicus with 16 samples.

Results

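Erythroid genes were followed in rat tissue taken from and beside bone defects. Of 8 listed genes (Alas2, Klf1, Epb42, Slc4a1, Rhag, Ahsp, Hemgn and Gata1), chosen by exact match of the gene symbol, 7 had a row among the 14476 genes of the count table and all 7 passed the filter on low counts. Gata1 had no matching row and was not analysed here. RNA-seq was carried out on 16 libraries from 4 Sprague-Dawley rats, each of which carried plated osteotomies on both sides, with a polymethyl methacrylate (PMMA) cement spacer in 1 defect and nothing in the other. At 4 weeks each rat gave 1 library to each of 4 groups. IM is the induced membrane that grows around the spacer, PFNU (pre-fibrous non-union) is the tissue that filled the unspaced osteotomy, PMMA bone is bone next to the spacer and BNED is bone next to the defect without one. All groups came from the same 4 operated animals, so none is an unoperated control, and the bone samples were not separated from their marrow in any step that the labels record.

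Red blood cells are made in the bone marrow from progenitors that divide several times, fill with haemoglobin, build a specialised membrane and lose their nucleus. The transcription factors Gata1 and Klf1 switch on this programme. Alas2 then catalyses the first and rate-limiting step of haem synthesis in red cell precursors, Ahsp is the chaperone that holds free alpha globin, and Hemgn is a nuclear protein of haematopoietic precursors. Slc4a1 (band 3, the chloride-bicarbonate exchanger), Epb42 (protein 4.2, which ties band 3 to the skeleton) and Rhag (the Rh-associated glycoprotein) build the red cell membrane.

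Because the levels of these genes varied together across the libraries, the sequence just before their start sites is shown for Klf1, the regulator, and for Alas2 and Hemgn, each of which holds a GATA motif. The windows are the 250 bases before the annotated start in RefSeq (rat build GRCr8), 5′ to 3′ on the strand of the gene, with matches to the GATA motif in capitals. They lie at chr19:40158652-40158901 (minus strand) for Klf1, chrX:22895200-22895449 (plus strand) for Alas2 and chr5:65485822-65486071 (minus strand) for Hemgn.
Klf1: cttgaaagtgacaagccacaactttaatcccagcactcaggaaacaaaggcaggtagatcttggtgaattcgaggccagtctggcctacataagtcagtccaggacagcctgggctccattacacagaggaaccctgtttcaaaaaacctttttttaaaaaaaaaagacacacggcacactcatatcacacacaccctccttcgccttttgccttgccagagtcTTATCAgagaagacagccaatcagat
Alas2: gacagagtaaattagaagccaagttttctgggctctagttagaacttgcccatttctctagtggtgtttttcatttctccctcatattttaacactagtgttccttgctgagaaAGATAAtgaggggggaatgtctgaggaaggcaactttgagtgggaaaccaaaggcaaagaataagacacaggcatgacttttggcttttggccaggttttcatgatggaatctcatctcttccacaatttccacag
Hemgn: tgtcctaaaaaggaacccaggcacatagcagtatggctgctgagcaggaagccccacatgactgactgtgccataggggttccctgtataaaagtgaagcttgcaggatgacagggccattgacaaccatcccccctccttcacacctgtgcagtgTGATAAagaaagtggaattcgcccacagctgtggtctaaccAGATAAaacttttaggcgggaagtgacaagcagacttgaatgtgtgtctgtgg

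The GATA motif was searched as AGATAA, its variant that ends in G (AGATAG) and the variants that begin with T (TGATAA and, with the other ending, TGATAG), and the KLF motif as CCNCNCCC, both on either strand and with no overlap between them. In Klf1 the match lay 26 to 21 bases before the start on the opposite strand, in Alas2 it lay 136 to 131 bases before it, and Hemgn had matches at 94 to 89 and at 53 to 48 bases. Epb42 had AGATAG at 82 to 77 bases and Rhag TGATAA on the opposite strand at 31 to 26 bases before the start. RefSeq windows were found for 6 of the 8 listed genes (all but Ahsp and Slc4a1), and Hemgn had a pair of them, giving 7 windows. A GATA motif stood in 5 of these 7 windows and in 27% of 33469 windows of the same length over all genes. A KLF motif stood in 2 of the 7, those of Gata1 and the other Hemgn start site, and in 42.8% of all windows, and no member window held both motifs, against 7.57% of all windows. A match describes the letters of a window and says nothing of binding, which was not measured.

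Libraries held 40472228 to 76815879 counts. Levels are CPM, read counts scaled to library size with the trimmed mean of M-values (TMM). All 7 genes were detected in every library, with as few as 8 counts for Rhag in the membrane of rat 3, so that the membrane values carry the largest counting error. The PMMA bone library of rat 1 stood apart from the other 3 of its group in all 7 genes, and results that rest on it are given with and without it. All 11 bone markers of the bone list (among them Bglap, Ibsp and Sost) had counts in all 16 libraries. Their summed level was 65096 to 102349 CPM in PMMA bone, 22302 to 54325 in BNED, 8407 to 54045 in IM and 10173 to 27481 in PFNU. The membrane sums overlapped those of BNED, but a sum follows the most abundant genes of a list. The mean log2 CPM of the 11 genes was 4.25, 6.31, 8.92 and 5.83 in IM of rats 1 to 4. It was 8.64, 8.10, 9.47 and 9.39 in BNED, a range that only IM of rat 3 reached among the membranes. The samples were bulk tissue, in which fewer erythroid cells and less erythroid RNA per cell cannot be told apart.

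The erythroid genes were highest in bone beside the empty defect and lowest in the induced membrane. The summed level of the 7 genes was 4377, 3740, 2748 and 4624 CPM in BNED of rats 1 to 4, and 5638, 260, 296 and 868 CPM in PMMA bone. In the defect tissue it was 44.3, 205, 70.1 and 293 CPM in PFNU and 9.23, 26.7, 19.5 and 39.1 CPM in IM. The order of the group means, IM below PFNU below PMMA bone below BNED, held for each of the 7 genes. Neighbours in this order were not all separate: IM and PFNU overlapped for Klf1, Alas2 and Epb42, PFNU and PMMA bone for every gene but Slc4a1, and PMMA bone and BNED for all 7, the last because of PMMA bone of rat 1 alone.

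Of the transcription factors Gata1 and Klf1 only Klf1 was measured. It was at 108, 87.0, 70.4 and 87.9 CPM in BNED of rats 1 to 4. In PMMA bone it was at 128, 6.89, 8.50 and 25.1 CPM. Its level was 1.04, 5.28, 1.27 and 7.68 CPM in PFNU and 0.249, 1.04, 0.674 and 1.30 CPM in IM, the latter from 13, 62, 35 and 66 counts. PMMA bone of rat 1 lay above every BNED library and the other 3 PMMA bone libraries lay below all of them. From the lowest library to the highest Klf1 differed 512-fold.

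Alas2, the haem enzyme, was at 896, 850, 565 and 907 CPM in BNED and at 994, 56.4, 71.9 and 206 CPM in PMMA bone. In PFNU it was at 10.2, 46.0, 20.6 and 65.7 CPM and in IM at 3.19, 14.1, 8.49 and 14.9 CPM. Its span of 312-fold was the smallest of the 7 genes.

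Ahsp, the globin chaperone, was at 820, 533, 508 and 959 CPM in BNED, 1077, 46.2, 50.8 and 149 CPM in PMMA bone, 7.49, 38.2, 11.7 and 60.1 CPM in PFNU and 1.46, 3.90, 1.31 and 5.23 CPM in IM. The highest membrane library lay below the lowest PFNU library. Hemgn showed the same separation, at 5.75, 23.4, 8.24 and 35.9 CPM in PFNU and 0.883, 1.96, 1.60 and 3.04 CPM in IM. In bone Hemgn was at 505, 409, 332 and 608 CPM in BNED and at 719.6, 24.6, 31.5 and 94.96 CPM in PMMA bone, again with rat 1 above and rats 2 to 4 below every BNED library.

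Among the membrane genes, Slc4a1 was at 1703, 1578, 1056 and 1714 CPM in BNED and at 2254, 107, 112 and 328 CPM in PMMA bone. It was at 15.8, 76.3, 24.1 and 99.8 CPM in PFNU and at 2.59, 2.66, 6.36 and 10.5 CPM in IM. These ranges overlapped only between the bone groups. Epb42, the protein that anchors band 3, was at 131, 118, 87.1 and 127 CPM in BNED, 158, 8.57, 8.71 and 27.7 CPM in PMMA bone, 1.84, 5.76, 2.37 and 9.90 CPM in PFNU and 0.441, 1.99, 0.867 and 2.86 CPM in IM. Rhag was at 214, 164, 130 and 220 CPM in BNED, 308, 10.9, 12.4 and 37.1 CPM in PMMA bone, 2.19, 10.5, 1.89 and 13.7 CPM in PFNU and 0.422, 1.10, 0.154 and 1.22 CPM in IM. Its span of 1998-fold between libraries was the widest of the set.

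**Figure D1:**
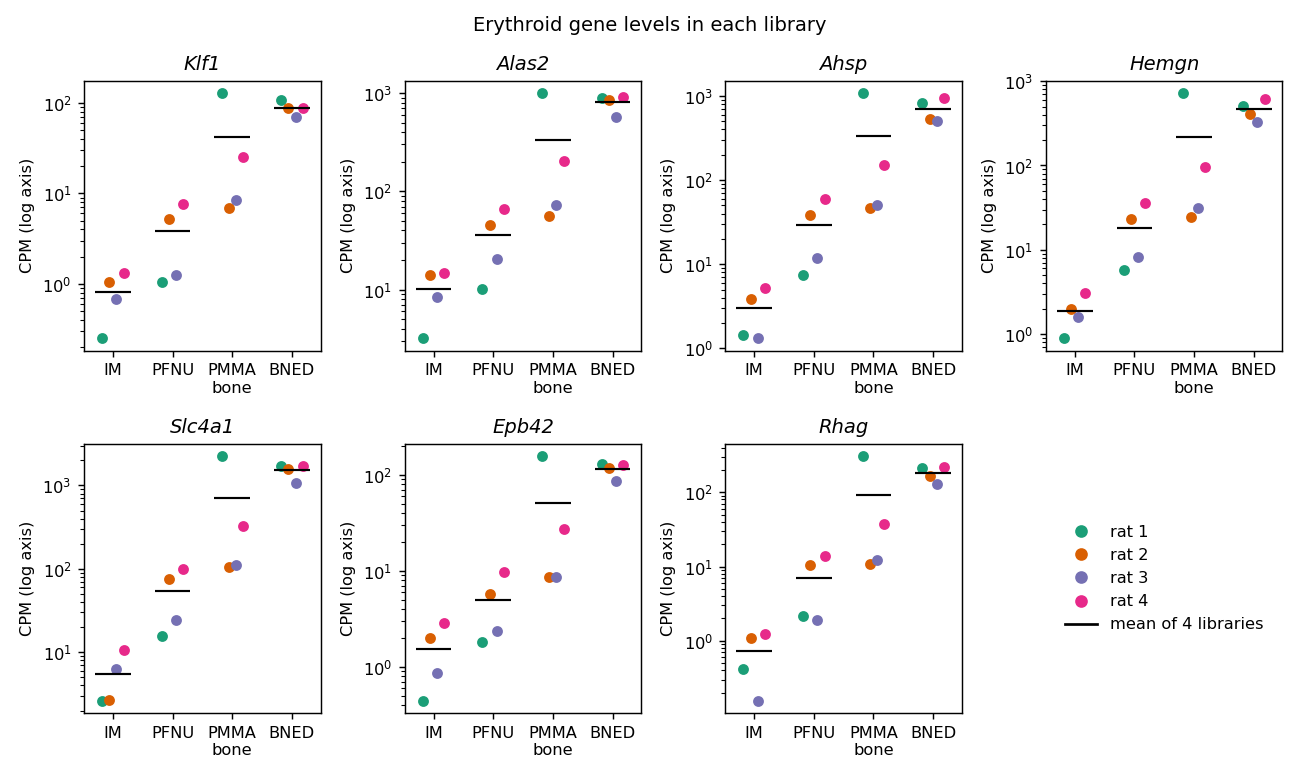
Level of each measured erythroid gene in CPM (log axis) in the 16 libraries by group, with a point per library coloured by rat and a line at the mean of 4 libraries. In every panel the PMMA bone library of rat 1 lies above the BNED libraries while the other 3 PMMA bone libraries lie below them, and the IM libraries are the lowest group.

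The first comparison asks how bone beside a spacer differs from bone beside an empty defect. None of the 7 genes passed the test over all libraries (edgeR's quasi-likelihood test, Benjamini-Hochberg adjusted p under 0.05, here and below), and none had an unadjusted p under 0.05. DESeq2 also called 0 of those of the 7 for which it gave an adjusted p, all but Slc4a1. Over all 13051 genes with an adjusted p it called 568 lower in PMMA bone. Limma-voom with quality weights, which gives libraries that fit poorly less weight, called all 7 lower in PMMA bone. Over all 12857 genes tested, edgeR called 1.40% lower in PMMA bone and limma-voom called 23.9%. The log2 differences ran from -0.98 for Rhag to -1.28 for Alas2, with adjusted p from 0.334 to 0.536, and their median was -1.09 against -0.01 over all genes. For Klf1 the means were 42.1 ± 57.7 CPM in PMMA bone and 88.4 ± 15.5 CPM in BNED (SD, n = 4), with a log2 difference of -1.07 (SE 0.81, edgeR adjusted p = 0.433).

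Within rats, the difference held in 3 of 4. Klf1 was 12.6, 8.29 and 3.50 times as high in BNED as in PMMA bone of rats 2, 3 and 4, and 0.848 times as high in rat 1. For Slc4a1 the same ratios were 14.8, 9.45 and 5.22 in rats 2 to 4 and 0.755 in rat 1. When PMMA bone of rat 1 was left out, all 7 genes were called lower in PMMA bone, against 10.5% of the genes tested in that fit. Log2 differences were then -2.71 for Klf1 (SE 0.71, adjusted p = 0.0163), -2.85 for Alas2 (SE 0.68, adjusted p = 0.0109), -3.10 for Ahsp, -3.20 for Hemgn, -3.05 for Slc4a1, -2.95 for Epb42 and -3.18 for Rhag, with edgeR adjusted p for these 5 from 0.00579 to 0.0126. The call in the bone comparison thus changed with 1 library.

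The comparison of the induced membrane with the tissue of the empty defect gave 0 called genes of 7 in edgeR, although 6 of 7 had an unadjusted p under 0.05 and each gene was lower in IM than in PFNU of the same rat in 4 of 4 rats. In this comparison 0.498% of all genes were called lower in IM, 15.5% had an unadjusted p under 0.05 in either direction and 10.1% were lower in IM in 4 of 4 rats. Klf1 averaged 0.816 ± 0.457 CPM in IM and 3.82 ± 3.23 CPM in PFNU (SD, n = 4), a log2 difference of -2.22 (SE 0.88, edgeR adjusted p = 0.237). Alas2 differed by -1.81 (SE 0.80, adjusted p = 0.295) and Epb42 by -1.69 (SE 0.86, adjusted p = 0.363). The other 4 genes had values near each other, at -3.30 for Ahsp, -3.29 for Hemgn, -3.29 for Slc4a1 and -3.28 for Rhag, with edgeR adjusted p from 0.106 to 0.149, and for these 4 the groups did not overlap, as was so for 3.31% of all genes tested (lower in IM).

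DESeq2 called Ahsp (adjusted p = 0.0202), Hemgn (0.0146) and Rhag (0.0282) lower in IM, 3 of the 7, where it called 1.77% of the genes it tested lower, and gave no adjusted p for Slc4a1. Limma-voom called 0 of 7, with 1 at an unadjusted p under 0.05. Over all 12857 genes it also called 0, with 1558 at an unadjusted p under 0.05. The size of the membrane difference varied between rats: the Slc4a1 level in PFNU was 6.09, 28.7, 3.79 and 9.46 times that in IM of rats 1 to 4, and the Alas2 level 3.21, 3.27, 2.42 and 4.40 times. Skeletal muscle genes, summed over 12 markers such as Acta1 and Ckm, took 19005 to 270374 CPM in IM and 48856 to 155654 CPM in PFNU, and their part in the difference was not tested.

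Defect tissue was then compared with neighbouring bone. In the empty limb all 7 genes were lower in PFNU than in BNED, with no overlap between groups, where 15.2% of all genes were called lower and 21.0% were lower without overlap. The log2 differences lay close together, from -4.50 for Alas2 (SE 0.89, edgeR adjusted p = 0.00207) to -4.81 for Slc4a1 (SE 0.99, adjusted p = 0.00258), with Klf1 at -4.53 (SE 0.93, adjusted p = 0.00247). In the spacer limb all 7 were lower in IM than in PMMA bone, again without overlap, where 11.0% of all genes were called lower and 11.7% were lower without overlap. Here the range was wider: Alas2 was at -5.03 (SE 0.92, adjusted p = 0.00259), Epb42 at -5.04 (SE 0.97), Klf1 at -5.68 (SE 0.99), Ahsp at -6.80, Hemgn at -6.86, and Slc4a1 and Rhag both at -6.98, with adjusted p from 0.00105 to 0.00345. Without PMMA bone of rat 1 all 7 were still called lower, at -3.28 to -5.04, against 7.63% of the genes tested in that fit. Limma-voom called 3 of the 7 lower, where it called 9.52% of all genes lower.

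**Figure D2:**
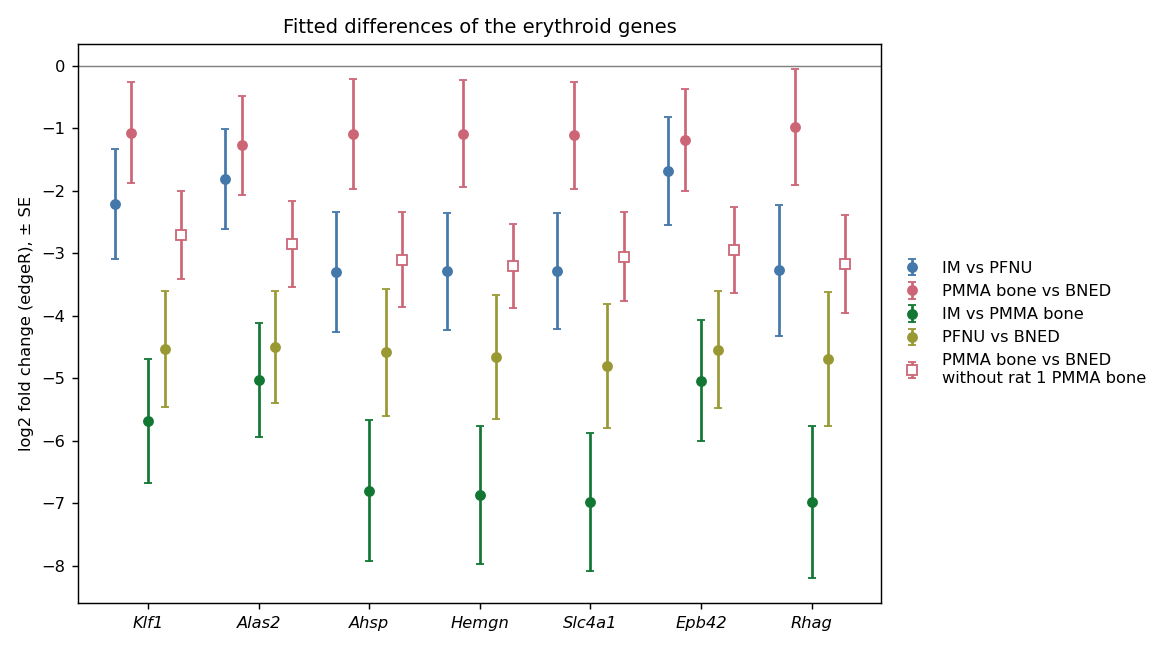
Fitted log2 fold change of each gene (edgeR, error bars ± SE) in the 4 comparisons, with open squares for PMMA bone against BNED without the PMMA bone library of rat 1. The squares lie between -2.71 and -3.20, against -0.98 to -1.28 with all libraries.

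The interaction asks whether the difference between spacer and empty defect is the same in defect tissue as in bone. EdgeR called 0 of 7 erythroid genes and 0 of all 12857 genes (0%), with 0 of the 7 and 1149 of all genes at an unadjusted p under 0.05. DESeq2, which gave Slc4a1 no adjusted p, and limma-voom each called 0 of the erythroid genes they tested. They called 131 and 218 of all genes. The fitted values ran from -0.49 for Epb42 to -2.29 for Rhag, with edgeR adjusted p from 0.640 to 0.931. Without PMMA bone of rat 1 they were 0.49 for Klf1, 1.04 for Alas2 and 1.26 for Epb42, and -0.20 for Ahsp, -0.089 for Hemgn, -0.23 for Slc4a1 and -0.099 for Rhag, with adjusted p from 0.532 to 0.977. The size of the interaction thus rested on 1 library for all 7 genes, and no direction is drawn from it.

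The balance between the regulator Klf1 and the late genes was next compared across libraries. The 6 late genes were Alas2, Ahsp, Hemgn, Slc4a1, Epb42 and Rhag, so Hemgn, itself a nuclear protein, was counted among them. Counts of different genes are not corrected for transcript length, so only changes in a ratio from library to library are read. Klf1 took 2.47, 2.33, 2.56 and 1.90% of the 7 genes' summed counts in BNED, 2.27, 2.65, 2.88 and 2.89% in PMMA bone and 2.34, 2.57, 1.81 and 2.62% in PFNU. In IM it took 2.70, 3.88, 3.47 and 3.33%. With few counts these membrane shares are imprecise: the exact 95% binomial interval was 1.45 to 4.58% in IM of rat 1 and 2.99 to 4.95% in IM of rat 2, against 2.41 to 2.54% in BNED of rat 1. On the log2 scale Klf1 minus the mean of the 6 late genes (prior count 2) was -1.62 ± 0.35 in IM, -2.33 ± 0.19 in PFNU, -2.11 ± 0.19 in PMMA bone and -2.33 ± 0.20 in BNED (SD, n = 4). IM thus stood 0.71 above PFNU and 0.48 above PMMA bone, PMMA bone 0.23 above BNED, and PFNU differed from BNED by 0.0047. The Klf1 share was kept within 1.81 to 2.89% in all 12 PFNU and bone libraries, while the summed level of the 7 genes differed from 44.3 to 5638 CPM among them.

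The late genes did not keep a fixed ratio to each other in the membrane. Alas2 took 34.5, 52.7, 43.7 and 38.1% of the 7 genes' counts in IM, against 22.4 to 29.3% in PFNU, 17.6 to 24.3% in PMMA bone and 19.6 to 22.7% in BNED, so that IM did not overlap any other group. Slc4a1 took 28.1, 9.96, 32.7 and 26.9% in IM and 34.1 to 42.2% in the other 12 libraries. For 100 counts of Slc4a1 there were 123, 529, 134 and 142 counts of Alas2 in IM, 60.3 to 85.4 in PFNU, 44.1 to 64.3 in PMMA bone and 52.6 to 53.9 in BNED. Per 100 Alas2 counts, Klf1 had 7.37 to 8.73 counts in IM, 6.16 to 11.7 in PFNU, 11.8 to 12.9 in PMMA bone and 9.68 to 12.5 in BNED. Per 100 Slc4a1 counts it had 9.63 to 39.0 in IM and 5.13 to 7.70 elsewhere. The position of Klf1 in the membrane therefore depended on the late gene it was set against: relative to Alas2 it was lower than in both bone groups and overlapped PFNU, and relative to Slc4a1 it was higher than in every other group.

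**Figure D3:**
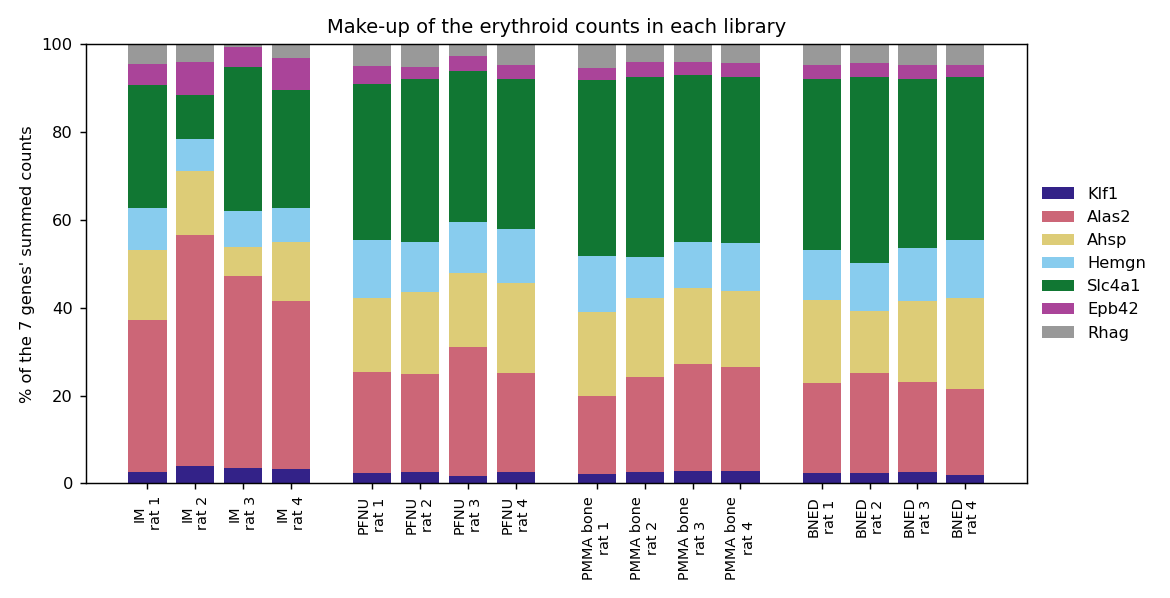
Share of each gene in the summed counts of the 7 erythroid genes, in percent, for each of the 16 libraries. In the IM libraries Alas2 takes 34.5 to 52.7% and Slc4a1 at most 32.7%, while in the PFNU, PMMA bone and BNED libraries Alas2 takes 17.6 to 29.3% and Slc4a1 34.1 to 42.2%.

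**Figure D4:**
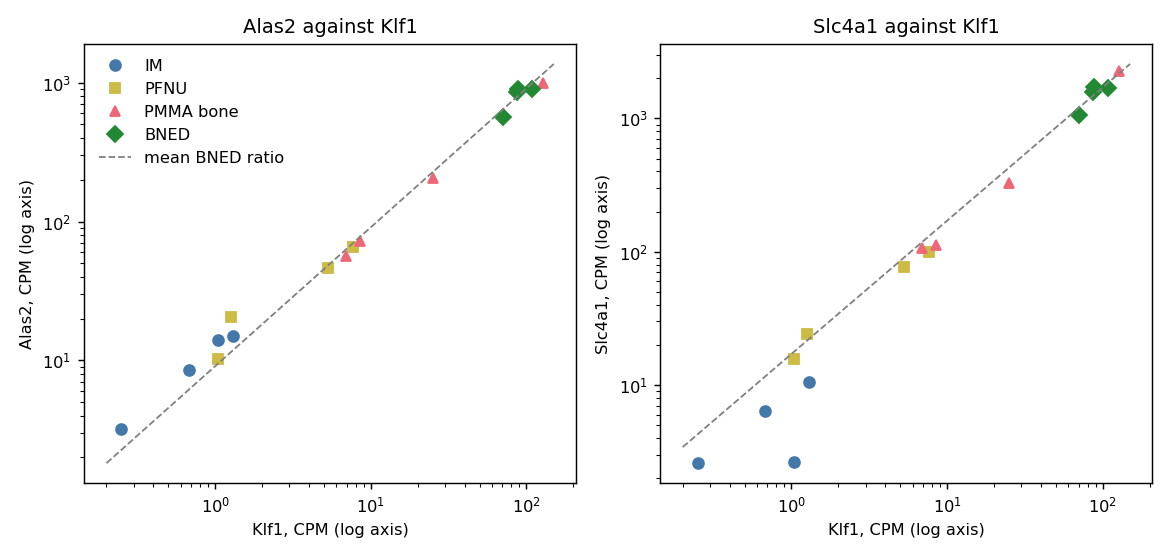
Alas2 and Slc4a1 against Klf1 in CPM (log axes), a point per library, with a dashed line at the mean ratio of the BNED libraries. IM libraries lie above the line for Alas2 and below it for Slc4a1.

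Across the 16 libraries each pair of the 7 genes had a Pearson correlation of log2 CPM of at least 0.977, and after group means were subtracted at least 0.833. These are descriptions over libraries that share rats and groups. Outside the set, the genes most like the mean of the 6 late genes were Rhd (r = 0.997), Kel (0.997), Alox15 (0.995), Add2 (0.994) and Ca1 (0.993), out of 11493 genes that averaged 1 CPM or more. Rhd and Kel carry blood group antigens, Add2 is part of the membrane skeleton, Ca1 is a carbonic anhydrase and Alox15 a lipoxygenase of maturing reticulocytes. The genes most like Klf1 were Trim10 (0.996), Alox15 (0.995), Rhd (0.992), Kel (0.991), Hba1 (0.990) and Add2 (0.990). With group means subtracted, Ca1 (0.983), Rhd (0.981) and Kel (0.978) led for the late genes and Trim10 (0.979), Ca1 (0.976) and Alox15 (0.973) for Klf1.

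Other factors of the erythroid network were examined next. Of 13 measured transcription factors and cofactors, 1 was called lower in PMMA bone than in BNED, Ikzf1 (Ikaros, a lymphoid and erythroid factor), at 22.6 ± 12.6 against 66.0 ± 4.83 CPM (SD, n = 4) and a log2 difference of -1.55 (SE 0.34, edgeR adjusted p = 0.0282). Without PMMA bone of rat 1 there were 8 of 13, and the list's median log2 difference was -0.81 with all libraries. In PFNU 8 of 13 were called lower than in BNED and in IM 6 of 13 lower than in PMMA bone, 4 of them when PMMA bone of rat 1 was left out. Gfi1b and Nfe2, chosen after their values were seen, were high in BNED and in PMMA bone of rat 1. Gfi1b, a repressor needed for red cell and platelet precursors, was at 49.6, 50.2, 31.1 and 38.9 CPM in BNED and 51.3, 3.56, 4.91 and 12.98 CPM in PMMA bone, and was 4.24 log2 units lower in PFNU than in BNED (log2 difference -4.24, adjusted p = 0.00190). Nfe2, which binds globin control regions, was at 81.4, 82.2, 58.4 and 67.2 CPM in BNED and 79.4, 7.30, 10.9 and 19.5 CPM in PMMA bone, with a log2 difference of -4.13 between PFNU and BNED (adjusted p = 0.000347). Lmo2, a bridging factor that blood vessel cells also use, was likewise chosen after its values were seen and stayed within 49.8 to 95.3 CPM in all 16 libraries. Between IM and PFNU 1 of 13 was called, Bcl11a, the fetal globin repressor, at a log2 difference of -2.79 (edgeR adjusted p = 0.0350).

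Summed without Alas2, haem synthesis genes set BNED and PMMA bone of rat 1 apart from the rest. They were at 1372 to 1979 CPM in BNED and at 2351, 542, 573 and 747 CPM in PMMA bone of rats 1 to 4. PFNU, at 487 to 863 CPM, and IM, at 440 to 814 CPM, overlapped each other and PMMA bone of rats 2 to 4. Besides Alas2, 14 genes of the pathway and its transporters were tested: 10 were called lower in PFNU than in BNED, 4 lower in IM than in PMMA bone, and 0 in either comparison of spacer with empty defect. The 4 became 1 without PMMA bone of rat 1, and the bone comparison then gave 11 of 14. Alas1, the housekeeping counterpart of Alas2, was at 40.2 to 74.1 CPM in BNED and 35.9 to 102 CPM in IM and was called in none of the 4 comparisons.

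Red cell membrane genes other than the members, 16 tested, gave 9 called lower and 1 called higher in PFNU than in BNED, and 8 lower and 1 higher in IM than in PMMA bone. The gene called higher in both was Tmod1, a tropomodulin that caps actin filaments and is also a muscle protein. None of the 16 was called between PMMA bone and BNED with all libraries, and 12 were called lower without PMMA bone of rat 1.

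All 8 globin genes tested were called lower in PFNU than in BNED and in IM than in PMMA bone. Without PMMA bone of rat 1, 7 were still called lower in IM. None of the 8 was called between PMMA bone and BNED, where all 8 were negative with a median of -1.14, and without PMMA bone of rat 1 all 8 were called lower. Reads shared by near-identical globins may have been split between them, so calls and values of single globin genes are uncertain. Globins took 4.23 to 7.53% of all counts in BNED, 8.03, 0.454, 0.448 and 1.37% in PMMA bone, 0.0916 to 0.458% in PFNU and 0.0373 to 0.160% in IM. For each count of the 7 erythroid genes there were 11.4 to 15.03 globin counts in BNED, 13.5 to 16.1 in PMMA bone, 14.4 to 23.2 in PFNU and 39.6, 61.5, 31.2 and 31.2 in IM. The membrane held the fewest globin counts and the most per count of the 7 genes.

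Genes of reticulocyte maturation, 20 tested, gave 15 called lower in PFNU than in BNED, and 9 lower and 1 higher (Ube2l6, a ubiquitin-like modifier enzyme) in IM than in PMMA bone. Without PMMA bone of rat 1, 7 were lower and 2 higher (Ube2l6 and Ubac1) in IM. Between PMMA bone and BNED 0 of 20 were called, and 15 without PMMA bone of rat 1. Of 13 erythropoietin and iron uptake genes, 8 were called lower and 1 higher (Aco1, the iron-responsive aconitase) in PFNU than in BNED, and 6 were lower in IM than in PMMA bone, 4 without PMMA bone of rat 1. Between PMMA bone and BNED 0 of 13 were called, and 7 lower and 1 higher (Steap3, adjusted p = 0.0321) without PMMA bone of rat 1. Epor, the erythropoietin receptor, was at 40.2, 41.4, 27.6 and 27.8 CPM in BNED and 45.6, 4.09, 6.09 and 10.5 CPM in PMMA bone. Tfrc, the transferrin receptor, which dividing cells of many types use, did not share this pattern: it was at 803 to 1225 CPM in BNED and at 1532, 682, 1224 and 428 CPM in PMMA bone, a log2 difference near 0 (adjusted p = 0.997). Steap3, the endosomal ferrireductase, was called between IM and PFNU, higher in IM by 0.71 (edgeR adjusted p = 0.0349).

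Of 15 genes for clearing red cells and haem, 5 were called lower in PFNU than in BNED, and 3 lower and 2 higher in IM than in PMMA bone (2 and 1 without PMMA bone of rat 1). Between PMMA bone and BNED Spic, the factor of red pulp and marrow macrophages that recycle iron, was called lower at -1.05 (edgeR adjusted p = 0.0373), and Hpx, the haem-binding plasma protein haemopexin, was called higher at 1.63 (adjusted p = 0.0364). Without PMMA bone of rat 1 there were 5 lower (Blvra, Blvrb, Cd163, Spic and Vcam1) and 1 higher (Hpx).

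Markers of other cells of the marrow were set beside the erythroid genes in the bone libraries, as summed CPM in percent of the BNED mean. In PMMA bone of rats 1 to 4 the 7 erythroid genes stood at 146, 6.72, 7.63 and 22.4% and the globins at 142, 7.85, 7.78 and 23.5%. Cell division genes, 12 such as Mki67 and Top2a, stood at 116, 19.6, 23.5 and 33.4%. Mast cell and eosinophil genes stood at 60.3, 34.1, 37.7 and 60.1%, B cell precursor genes at 56.2, 23.7, 25.3 and 43.9%, neutrophil precursor genes at 37.6, 20.4, 25.3 and 24.4%, and marrow stroma genes at 102, 38.1, 42.7 and 59.6%. Megakaryocyte and platelet genes summed to 96.7, 153, 176 and 118%, a sum carried by a few abundant genes that other cells also use, such as Vwf (97.9 ± 42.6 CPM in PMMA bone and 34.7 ± 12.5 CPM in BNED, SD, n = 4) and Itgb3 (117 ± 59.6 and 58.0 ± 14.0 CPM). Most of that list lay the other way: 8 of its 12 genes were below every BNED library in each of rats 2 to 4, and the median log2 difference was -1.40. The platelet glycoprotein gene Gp5 was at 0.964 ± 0.855 CPM in PMMA bone and 6.61 ± 1.68 CPM in BNED, and 6 of the 12 were called lower and 2 higher without PMMA bone of rat 1, against 1 and 1 with it. In rats 2 to 4 the erythroid genes thus had the lowest sum of these lists in percent of BNED, but a sum follows a list's most abundant genes. With all libraries median log2 differences were -2.02 (neutrophil precursor), -1.40 (megakaryocyte and platelet), -1.26 (B cell precursor) and -1.14 (globins). The 7 erythroid genes followed at -1.09, mast cell and eosinophil genes at -1.04, cell division at -0.90 and marrow stroma at -0.62. The order changed without PMMA bone of rat 1, the library in which the erythroid genes stood highest. Without that library median log2 differences were -3.05 (7 erythroid genes), -2.95 (globins) and -2.57 (neutrophil precursor). They were -1.72 (megakaryocyte and platelet), -1.67 (cell division), -1.44 (B cell precursor), -1.16 (mast cell and eosinophil) and -0.90 (marrow stroma). Single genes of other lists fell as far as the erythroid genes, such as Elane (-2.95), Mpo (-2.96) and Gp5 (-3.55). In rat 1 all 7 erythroid genes lay above every BNED library, while 11 of 18 mast cell and eosinophil genes, 8 of 11 neutrophil precursor genes and 7 of 10 B cell precursor genes lay below every BNED library. So did 6 of 12 megakaryocyte and platelet, 1 of 8 marrow stroma and 0 of 12 cell division genes. Of 10 mature neutrophil genes 3 lay below, 6 within and 1 above the BNED range in rat 1. Their sum was 95.6, 118, 196 and 87.5% of the BNED mean in PMMA bone of rats 1 to 4. The median log2 difference of these 10 genes was -1.27 with all libraries. The part of these other cell types in the erythroid difference was not tested.

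**Figure D5:**
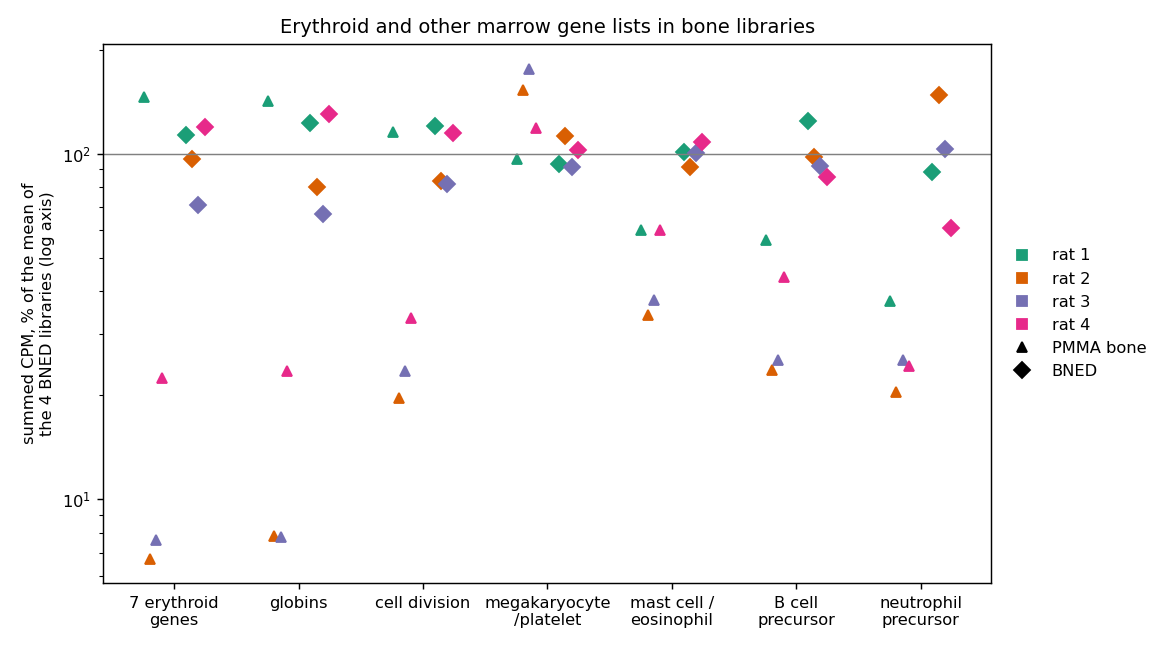
Summed CPM of the 7 erythroid genes, the globins and 5 marker lists in the bone libraries, in percent of the mean of the 4 BNED libraries (log axis), with triangles for PMMA bone and diamonds for BNED, coloured by rat. In PMMA bone the erythroid genes and globins spread from 6.72 to 146%, while neutrophil precursor genes lie between 20.4 and 37.6%.

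Single defining markers were as follows. Rag1, the recombinase of lymphocyte precursors, was at 187, 131, 131 and 121 CPM in BNED and 77.4, 22.5, 21.5 and 47.8 CPM in PMMA bone. Elane, the elastase of neutrophil precursors, was at 18.4, 36.5, 21.9 and 10.2 CPM in BNED and 11.9, 2.78, 2.49 and 3.14 CPM in PMMA bone, with rat 1 inside the BNED range, and had 0 counts in IM of rats 1 and 3. Cpa3, a mast cell protease, was at 359 to 590 CPM in BNED, 289, 136, 150 and 253 CPM in PMMA bone, 35.9 to 131 CPM in PFNU and 6.72 to 27.3 CPM in IM. Mki67, the proliferation antigen, was at 891.6, 626, 617 and 931 CPM in BNED and 961, 101, 125 and 192 CPM in PMMA bone, with rat 1 above every BNED library. Of the other lists, 2 of 18 mast cell and eosinophil genes, 2 of 11 neutrophil precursor genes, 3 of 10 B cell precursor genes and 0 of 12 cell division genes were called lower in PMMA bone with all libraries, and 5, 7, 5 and 12 without PMMA bone of rat 1.

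In the defect tissue the same marker lists gave mixed counts. Between IM and PFNU, 7 of 10 B cell precursor genes, 5 of 18 mast cell and eosinophil genes (among them Mcpt1, Mcpt2 and Kit) and 1 of 11 neutrophil precursor genes were called lower in IM, and 0 of 12 cell division, 0 of 12 megakaryocyte and platelet and 0 of 8 marrow stroma genes. Summed B cell precursor genes were at 53.0 to 84.3 CPM in IM and 59.1 to 107 CPM in PFNU, mast cell and eosinophil genes at 54.0 to 118 and 165 to 462 CPM, and neutrophil precursor genes at 17.4 to 39.8 and 42.4 to 52.7 CPM. Sums follow the most abundant genes: the median log2 differences of these lists were -3.34, -1.64 and -1.14. The mean log2 CPM of the B cell precursor genes was -1.59 to -1.25 in IM and 0.076 to 2.31 in PFNU. The part of these lists in the erythroid difference was not tested.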

How the data were processed

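RNA was extracted with Trizol and DNase-treated, and stranded poly-A TruSeq libraries (12 PCR cycles) were sequenced paired-end over 100 cycles, per the labels' protocols. The deposited values are whole-number counts per gene symbol, not normalised. Build rn5, TopHat2 2.0.13, Bowtie2 2.2.1, DESeq2 and FastQC 0.11.3 are named in the submitters' processing notes. For the counting program, the annotation and strandedness, the setting is not given in the sources used here, so overlapping and antisense genes cannot be told apart. Replicates were separate rats, and any 2 libraries of 1 group differed by a chi-square of at least 83.1 per degree of freedom, so no library was a repeat of another.

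Counts were tested with edgeR 4.0.16 (quasi-likelihood F-test, TMM, filterByExpr, R 4.3.3) in 1 model of group means over 16 libraries. Of 14476 genes 12857 were tested, with Benjamini-Hochberg adjustment in each comparison. DESeq2 1.42.0 and limma 3.58.1 (voom with quality weights), RLE scaling, no filter and each library left out were alternatives. The labels give the rat of each sample, which pairs the groups; deviations from group means correlated at 0.060 on average between libraries of the same rat (-0.345 to 0.496) and at -0.020 between different rats. Intervals cover counting error only, since PCR reads carried no molecular identifiers. The script was tested on simulated data.

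The members and lists were chosen with earlier results of these data known. Named list genes were up to 3 per list with the smallest adjusted p in the bone comparison, plus counterparts and defining markers. Values of some genes of these lists are not reported here. The planned mean of Gata1 and Klf1 was Klf1 alone. Counts without PMMA bone of rat 1 were added after seeing the data for the gene lists. RefSeq promoter windows are from GRCr8, not the build of the counts.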

Additional observations from a re-analysis of the deposited data

Results flagged for a closer look

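Within each group of 4 libraries, the highest or lowest library was compared with the gap to its neighbour by Dixon's test for each gene and for the Klf1 balance. Of 32 such groups 8 stood out, and chance gives about 1 in 20. In PMMA bone, rat 1 stood out on the high side for all 7 measured genes: Klf1 at 128 CPM, Alas2 at 994 CPM, Ahsp at 1077 CPM, Hemgn at 719.6 CPM, Slc4a1 at 2254 CPM, Epb42 at 158 CPM and Rhag at 308 CPM. These 7 are not independent, since the genes move together. In BNED, rat 3 stood out on the low side for Alas2, at 565 CPM.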

How the results depend on the processing

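Calls depended most on PMMA bone of rat 1. The number of genes called lower in PMMA bone than in BNED was 0 with all libraries and 0 to 7 when each library was left out in turn, 7 only without that library, and 7 with limma-voom. DESeq2 called 3 genes between IM and PFNU, and limma-voom called 3 between IM and PMMA bone. Between IM and PMMA bone DESeq2 called 1742 of all 13892 genes lower. There it called 6 of the 7 genes that edgeR called, and gave no adjusted p for Slc4a1. That count and the other recomputed counts stayed within 1.5 times the reported count. Each recomputed Klf1 balance moved by less than the SD between libraries; that of PFNU against BNED, near 0, ran from -0.092 to 0.088 with each library left out and has no direction. The interaction, called for no gene, changed sign with limma-voom for Klf1 (0.69), Alas2 (1.06), Hemgn (0.083), Slc4a1 (0.076) and Epb42 (1.01). Leaving out each library gave -1.50 to 0.49 for Klf1, -0.88 to 1.04 for Alas2 and -0.85 to 1.26 for Epb42. The causes were not tested. With rat as a replicate block 0 of 7 genes were called for IM against PFNU, for PMMA bone against BNED and for the interaction. Over all 12857 genes 37, 146 and 0 were called lower there. All 7 were called lower in IM than in PMMA bone and in PFNU than in BNED, against 1487 and 1975 of all genes. The block changed no call of the 7, and moved the Epb42 interaction to 0.040. For IM against PFNU the balance ran from 0.57 to 0.84. Alternatives that needed Gata1 were not run. Low counts limit the membrane ratios, where Rhag had as few as 8 counts.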
